A study of Mus musculus with 6 samples.

Results

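Genes of phospholipase A2 and eicosanoid synthesis, 10 in number, were followed in tumor-associated macrophages (TAMs). They are Pla2g4a, Pla2g4c, Pla2g3, Pla2g7, Ptgs1, Ptgs2, Ptges, Ptgis, Alox5 and Alox5ap, taken by gene symbol from a table of 56980 genes, and all 10 of 10 were found. TAMs came from female C57BL/6 wild-type (WT) mice and from C5aR knockout (C5aR-/-) mice of the same background, aged 6 to 8 weeks, that had been injected intraperitoneally with ID8 cells, a mouse epithelial ovarian cancer line. Tumors were taken 2 months after the injection, and live CD45+CD11b+Ly6G-F4/80+ cells were sorted from them. Poly(A) RNA was sequenced from 3 WT and 3 C5aR-/- samples, each a library, and nothing states whether a library is 1 mouse or a pool, while the legends of the study give more mice per group than the libraries analysed here. The p-values therefore measure only the spread between these libraries. The knockout is of the whole animal, so every host cell type lacked C5aR, whereas the injected tumor cells were not knocked out.

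Eicosanoids are short-lived lipid signals made from arachidonic acid. Phospholipase A2 enzymes cut the fatty acid out of membrane phospholipids, after which cyclooxygenases and downstream synthases turn it into prostaglandins, prostacyclin and thromboxane, or 5-lipoxygenase and its partner FLAP turn it into leukotrienes. Another branch of the phospholipase family inactivates platelet-activating factor (PAF), a lipid mediator that is made from the same membrane phospholipids. Macrophages are a major source of these mediators, and prostaglandin E2 is known for restraining T cells in tumors.

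The promoters of Pla2g4c and Pla2g7 are shown because these are the members with the clearest differences, in opposite directions, and those of Ptgs1 and Ptgs2 because they stand for the constitutive and the inducible cyclooxygenase. Each window runs from 250 bases before to 30 bases after a transcript start on the strand of the gene, 5' to 3', from RefSeq on GRCm38.p6. They lie at chr7:13325417-13325696 (+) for Pla2g4c, chr17:43568201-43568480 (+) for Pla2g7, chr2:36230176-36230455 (+) for Ptgs1 and chr1:150099781-150100060 (+) for Ptgs2. Capitals mark matches on either strand to 6 motifs: the PU.1 core GAGGAA, the GC box GGGCGG, the C/EBP palindrome TTGCGCAA, the cyclic AMP response half-site ACGTCA, the E-box CACGTG and the AP-1 site TGANTCA.
Pla2g4c promoter: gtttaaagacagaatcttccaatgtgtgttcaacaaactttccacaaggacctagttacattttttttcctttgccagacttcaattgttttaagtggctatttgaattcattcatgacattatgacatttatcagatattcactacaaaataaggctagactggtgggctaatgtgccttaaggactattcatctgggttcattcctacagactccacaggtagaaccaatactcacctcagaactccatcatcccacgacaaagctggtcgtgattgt
Pla2g7 promoter: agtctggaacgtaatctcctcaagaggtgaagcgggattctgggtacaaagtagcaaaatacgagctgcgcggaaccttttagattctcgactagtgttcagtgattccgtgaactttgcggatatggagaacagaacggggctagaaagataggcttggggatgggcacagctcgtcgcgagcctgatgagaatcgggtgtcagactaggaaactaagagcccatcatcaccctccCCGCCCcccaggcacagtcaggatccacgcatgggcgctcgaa
Ptgs1 promoter: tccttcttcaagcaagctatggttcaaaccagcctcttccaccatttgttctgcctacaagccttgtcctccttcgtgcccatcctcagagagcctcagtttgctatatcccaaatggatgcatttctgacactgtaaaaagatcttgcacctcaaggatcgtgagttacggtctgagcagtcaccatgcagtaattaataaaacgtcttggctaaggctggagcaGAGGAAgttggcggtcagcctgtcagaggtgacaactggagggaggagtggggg
Ptgs2 promoter: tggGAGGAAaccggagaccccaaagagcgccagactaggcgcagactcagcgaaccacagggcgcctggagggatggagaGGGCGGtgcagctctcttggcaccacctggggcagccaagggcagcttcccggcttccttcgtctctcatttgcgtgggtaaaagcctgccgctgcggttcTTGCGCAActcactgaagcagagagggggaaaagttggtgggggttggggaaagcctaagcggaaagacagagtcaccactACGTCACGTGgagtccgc

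In the Ptgs2 promoter 5 of the 6 motifs were found, and its half-site and E-box overlap by 2 bases just after the start. The Ptgs1 window held a PU.1 core, the Pla2g7 window a GC box on the other strand, and the Pla2g4c window none, although a second annotated Pla2g4c start, at chr7:13329072-13329351, held a PU.1 core. Over 32817 promoter windows of the same length, 34.7% held the GC box, 26% the PU.1 core, 7.47% the AP-1 site, 7.25% the half-site, 6.79% the E-box and 0.18% the palindrome. These are matches of letters, and the motifs were chosen after the Ptgs2 sequence had been read. Of the 10 genes, 7 had a promoter entry.

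Expression is given as TPM, a transcript abundance scaled to the library total, which corrects for transcript length and so allows levels to be compared between genes. Each library sums to 1000000 TPM and keeps no record of sequencing depth, so no counting error can be given. Between 14393 and 15015 genes reached a TPM of 1 in a library. The knockout was visible in C5ar1, the gene of C5aR, at 86.5, 37.3 and 16.2 TPM in WT libraries against 0.38, 0.11 and 0.05 TPM in C5aR-/- libraries. Macrophage markers were present throughout, but the summed TPM of 12 of them ranged from 2598 to 8996 in WT and from 2597 to 8893 in C5aR-/- TAMs, highest in WT TAM 1 and C5aR-/- TAM 1. Markers of other cells were also present. Those of epithelial cells summed to 1669 to 2211 TPM over the 6 libraries, and mesothelial markers to 1221 to 1613 in WT and 780 to 1111 in C5aR-/- TAMs. The mast cell and neutrophil sums were lower in every C5aR-/- library than in every WT library. In such bulk RNA, fewer cells of a type and less RNA per cell cannot be told apart.

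The genotypes were compared by limma on log2(TPM + 1) over 14776 genes that reached a TPM of 1 in 3 or more libraries, and all 10 members passed that filter. Differences are C5aR-/- minus WT on this log2 scale, where the added 1 shrinks differences of genes near 1 TPM. At 2-fold and an adjusted p under 0.05, 0% of the tested genes were called, members included (0 of 14776, with 2133 at an unadjusted p under 0.05). A gene is named as called below when its unadjusted limma p was under 0.05 with a change of at least 2-fold, a rule that called 2.13% of all tested genes as higher and 2.84% as lower in C5aR-/- TAMs. By that rule 1 member, Pla2g7, was higher and 1 member, Pla2g4c, was lower. The WT and C5aR-/- libraries did not overlap for 4 of the 10 members, Pla2g7 and Pla2g3 (higher) and Pla2g4c and Ptges (lower), against 21.3% of all tested genes. Pla2g3 passed the filter only through the C5aR-/- libraries, where it was higher. With 3 libraries a group, an exact permutation test cannot give a p below 0.1. The median difference over the 10 members was -0.28, against -0.05 over all tested genes, and 7 of the 10 differences were negative. Over all tested genes, 8206 of 14776 differences were negative.

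**Figure D1:**
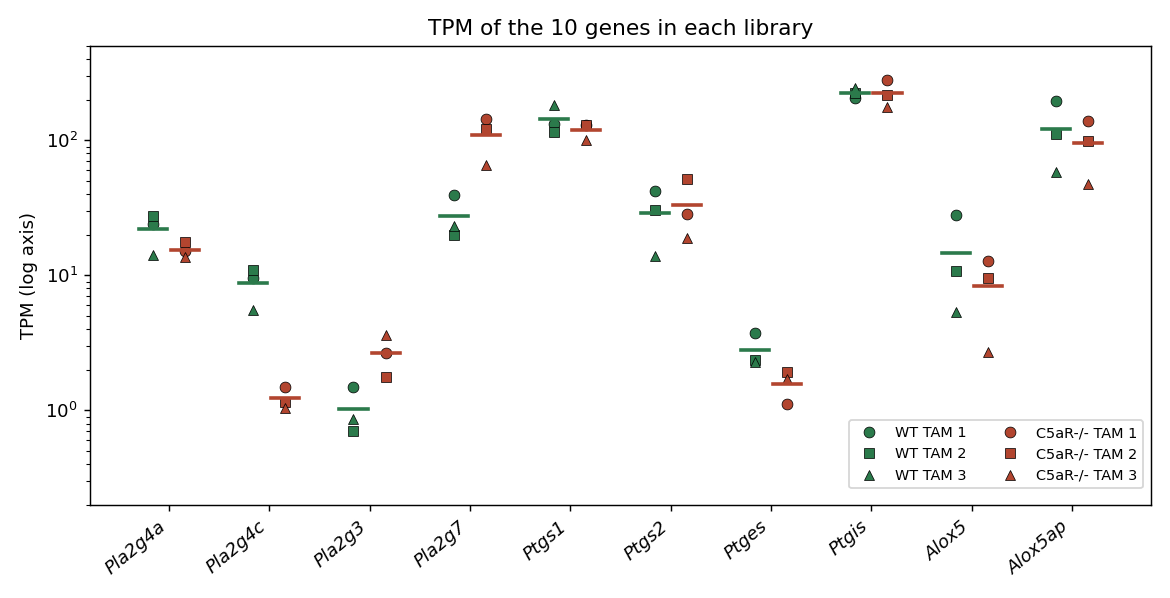
TPM (log axis) of the 10 genes in each library, with WT TAMs in green, C5aR-/- TAMs in red, a marker shape for each library number and a line at the group mean. Pla2g4c was lower and Pla2g7 higher in all 3 C5aR-/- libraries, whereas the points of Ptgs1, Ptgs2, Ptgis, Alox5 and Alox5ap overlapped.

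Levels spanned a wide range. Ptgis was the most abundant member in both groups (mean TPM 224.9 in WT and 223.8 in C5aR-/- TAMs), followed by Ptgs1 (143.1 and 119.9), and the WT range of Ptgis, 205 to 244 TPM, did not overlap that of Ptgs1, 114 to 183 TPM. In WT TAMs the order continued with Alox5ap, Ptgs2, Pla2g7, Pla2g4a, Alox5, Pla2g4c, Ptges and Pla2g3. The range of Alox5ap overlapped that of Ptgs1, and from Ptgs2 to Pla2g4c each range overlapped that of its neighbor, so that these genes were not ranked beyond their spread. Ptgs2, Ptges and Pla2g3 were each apart from the gene before them. In C5aR-/- TAMs Pla2g7 stood between Ptgs1 and Alox5ap, and its range overlapped both. Pla2g4c stood last, and its range overlapped that of Ptges.

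The cytosolic phospholipases come first in the pathway. Pla2g4a (ENSMUSG00000056220, chr1:149829618-149961290, minus strand, GRCm38) encodes the calcium-dependent enzyme that prefers arachidonic acid. It had a TPM of 24.1, 27.7 and 14.2 in WT and 15.3, 17.6 and 13.7 in C5aR-/- TAMs. The 2 higher WT libraries lay above every C5aR-/- library, while WT TAM 3 lay among them, and the log2 difference of -0.44 (95% confidence interval -1.06 to 0.19) did not pass the test (limma adjusted p = 0.498). On the same chromosome Pla2g4a and Ptgs2 are neighboring protein-coding genes, 138.7 kb apart and on opposite strands.

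Pla2g4c (ENSMUSG00000033847, chr7:13324655-13360672, plus strand) encodes a membrane-anchored relative that does not need calcium. Its TPM was 9.61, 10.95 and 5.56 in WT and 1.5, 1.15 and 1.05 in C5aR-/- TAMs. Every C5aR-/- library lay far below every WT library, and the means of 8.71 ± 2.81 and 1.23 ± 0.236 (SD, n = 3 each) differed 7.06-fold. The log2 difference was -2.08 (standard error, SE, 0.28, 95% confidence interval -2.75 to -1.41). Its adjusted p of 0.0666 from limma was the smallest reached by any tested gene, shared with C5ar1 among others, and missed the threshold. Without C5aR-/- TAM 1 the adjusted p was 0.0294, and over all 14 alternative settings it ran from 0.0294 to 0.346. Pla2g4c and Pla2g3 are among the genes the study displays from these same libraries, so their direction is not independent evidence.

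Within WT TAMs, Pla2g4c and Pla2g4a kept a nearly fixed proportion. The ratio of their TPM was 0.398, 0.395 and 0.392 in WT and 0.0983, 0.0655 and 0.0768 in C5aR-/- TAMs. The lower level of WT TAM 3 was thus shared by both genes, and the C5aR-/- libraries differed from WT in Pla2g4c relative to Pla2g4a (log2 difference of the ratio -2.32, exact permutation p = 0.1, the smallest that 3 against 3 allow). This ratio and the others given here were chosen after values had been seen. Among all tested genes with a symbol, the 3 with the pattern most like that of Pla2g4c over the 6 libraries were Col17a1, Gm2044 and Akr1cl, with a mean absolute distance of 0.103, 0.133 and 0.154 on the centered log2 scale. Col17a1, which encodes a hemidesmosome collagen of epithelia, had 5.25 to 9.38 TPM in WT and 0.87 to 1.08 in C5aR-/- TAMs.

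The remaining gene of this class, Pla2g6, which encodes a calcium-independent phospholipase, varied between 25.0 and 34.6 TPM over the 6 libraries. Pla2g4b, Pla2g4d, Pla2g4e and Pla2g4f did not pass the filter, and their mean TPM over 6 libraries was at most 0.727. Pla2g4b, the highest of them, had 0.71 to 1.70 TPM in WT and 0.06 to 0.40 in C5aR-/- TAMs. The groups did not overlap for Pla2g4b, as for Pla2g4c.

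Secreted phospholipases act outside the cell. Pla2g3 (ENSMUSG00000034579, chr11:3488284-3499350, plus strand), a group III secreted enzyme, had a TPM of 1.48, 0.71 and 0.87 in WT and 2.68, 1.78 and 3.59 in C5aR-/- TAMs. All 3 C5aR-/- libraries were above all 3 WT libraries, at a low level. Only WT TAM 1 reached a TPM of 1 among the WT libraries, so Pla2g3 passed the filter only through the C5aR-/- libraries. The log2 difference was 0.86 (SE 0.29, unadjusted p = 0.0216 and limma adjusted p = 0.266), short of the 2-fold change that a call needs. The ratio of the mean TPM was 2.63, and with a pseudocount of 0.1 in place of 1 the log2 difference was 1.32, which met the rule.

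Of the 10 secreted phospholipase genes, 5 passed the filter. Pla2g5, a secreted enzyme also found in macrophages, had a TPM of 10.6, 21.1 and 12.2 in WT and 0.67, 4.17 and 0.51 in C5aR-/- TAMs. It was called lower, with a log2 difference of -2.67 (SE 0.52, limma adjusted p = 0.116). Only C5aR-/- TAM 2 reached a TPM of 1 among the C5aR-/- libraries, so Pla2g5 passed the filter only through the WT libraries. Pla2g2d, known as a secreted enzyme of lymphoid tissue macrophages and dendritic cells, was at 0, 0.07 and 0.07 TPM in WT and at 4.39, 1.59 and 1.22 in C5aR-/- TAMs. It was called higher with a log2 difference of 1.59 (SE 0.37, limma adjusted p = 0.161), but it passed the filter only through the C5aR-/- libraries.

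Pla2g7 (ENSMUSG00000023913, chr17:43568098-43612201, plus strand) encodes plasma PAF acetylhydrolase, a secreted phospholipase of macrophages that inactivates PAF and cleaves oxidized phospholipids. Its TPM was 39.5, 20.05 and 23.3 in WT and 144.7, 120.8 and 65.3 in C5aR-/- TAMs. The lowest C5aR-/- library exceeded the highest WT library, and the means of 27.6 ± 10.4 and 110.3 ± 40.8 (SD, n = 3 each) differed 3.99-fold. The log2 difference was 1.94 (SE 0.36, 95% confidence interval 1.08 to 2.81, unadjusted p = 0.00121 and limma adjusted p = 0.105). The call held in all 14 alternative settings, with log2 differences from 1.69 to 2.28 and adjusted p from 0.0561 to 0.423.

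In both groups Pla2g7 was highest in library 1, where macrophage markers were also highest. Relative to Adgre1, which encodes F4/80, its TPM ratio was 0.345, 0.438 and 0.92 in WT and 1.59, 3.01 and 2.34 in C5aR-/- TAMs. Relative to Csf1r, the receptor for macrophage colony-stimulating factor, it was 0.165, 0.223 and 0.393 in WT and 0.48, 0.701 and 0.78 in C5aR-/- TAMs. The groups stayed apart on both bases (log2 differences of 2.11 and 1.39, exact permutation p = 0.1 each). With the mean of the 12 macrophage markers as a term in the fit, a setting added after the data had been seen, the log2 difference was 1.69.

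Pla2g7 also took a larger share of the phospholipase A2 transcripts in C5aR-/- TAMs. Summed over the 23 genes of the family listed, TPM was 302.1 to 336.5 in WT and 314.1 to 399.5 in C5aR-/- TAMs. Pla2g7 made up 12.1%, 5.96% and 7.72% of that sum in WT and 36.2%, 31.9% and 20.8% in C5aR-/- TAMs. Pla2g4a gave 4.70% to 8.23% in WT and 3.82% to 4.63% in C5aR-/- TAMs, and Pla2g4c at most 3.25% in any library. The intracellular PAF acetylhydrolase subunits Pafah1b1 and Pafah1b3 varied little, at 52.2 to 62.8 and 48.0 to 57.5 TPM over the 6 libraries (log2 differences -0.11 and -0.02), and Pafah1b2 ranged from 30.4 to 45.8 TPM. Pafah2, another PAF-degrading enzyme, had a TPM of 9.85, 16.6 and 16.8 in WT and 9.67, 8.81 and 8.28 in C5aR-/- TAMs. Its groups were apart, with a log2 difference of -0.60 (limma adjusted p = 0.325), under 2-fold. Lpcat2, whose product makes PAF from lyso-PAF, had a TPM of 11.4, 7.68 and 12.4 in WT and 25.2, 29.3 and 23.3 in C5aR-/- TAMs. It was called higher, with a log2 difference of 1.25 (SE 0.21, limma adjusted p = 0.0932), while of the PAF-degrading enzymes Pla2g7 was called higher and Pafah2 was lower without a call. The PAF receptor gene Ptafr overlapped between the groups, with 6.37 to 16.1 TPM in WT and 3.95 to 24.2 in C5aR-/- TAMs.

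**Figure D2:**
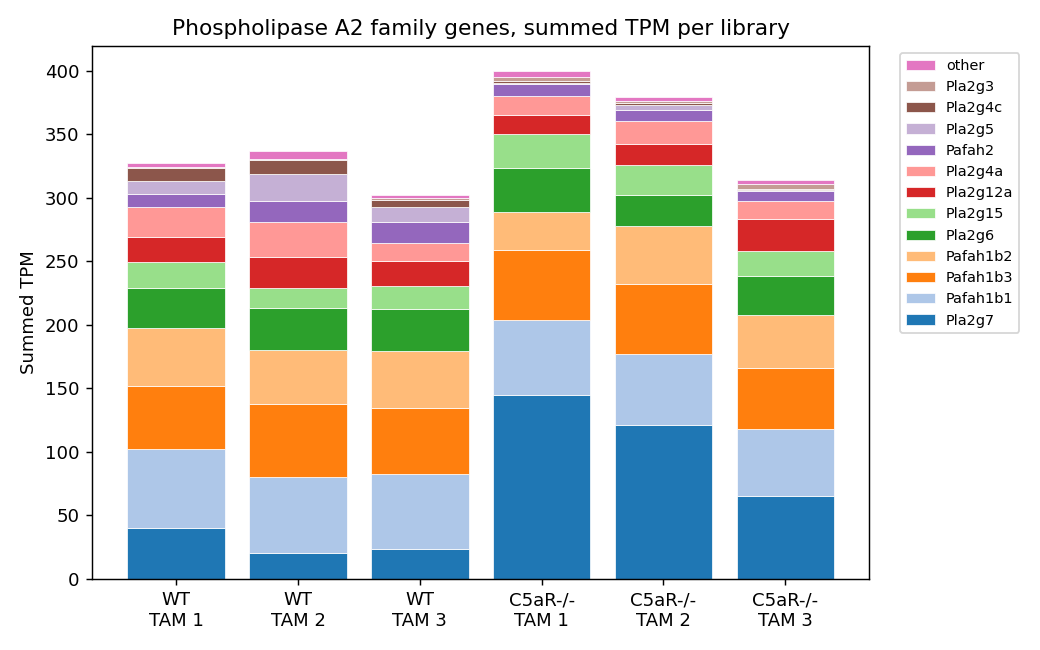
Summed TPM of 23 phospholipase A2 family genes in each library, with 1 bar per library starting at 0 and 1 color per gene. The Pla2g7 segment at the base was 65.3 to 144.7 TPM in the C5aR-/- libraries and 20.05 to 39.5 TPM in the WT libraries.

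The cyclooxygenases make prostaglandin H2 from arachidonic acid. Ptgs1 (ENSMUSG00000047250, chr2:36230426-36252272, plus strand), which encodes the constitutive COX-1, had a TPM of 132.2, 114.5 and 182.7 in WT and 129.7, 129.5 and 100.5 in C5aR-/- TAMs. The groups overlapped, and the log2 difference was -0.24 (95% confidence interval -0.73 to 0.26, limma adjusted p = 0.645). Ptgs2 (ENSMUSG00000032487, chr1:150100031-150108227, plus strand) encodes the inducible COX-2, whose promoter is shown above. Its TPM was 42.2, 30.3 and 13.95 in WT and 28.4, 52.0 and 18.9 in C5aR-/- TAMs. Ptgs2 was lowest in library 3 of each group, and its log2 difference was 0.20 (95% confidence interval -0.96 to 1.37, limma adjusted p = 0.881). The interval takes in a 2-fold higher and a nearly 2-fold lower level, so a difference of that size was not detectable with these libraries. Its sign turned to -0.23 without WT TAM 3, to -0.17 without C5aR-/- TAM 2 and to -0.045 with the macrophage markers as a term.

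Transcripts of COX-1 outnumbered those of COX-2 in all 6 libraries. Within WT TAMs Ptgs1 was highest in the library with the lowest macrophage marker sum, whereas within C5aR-/- TAMs it was lowest in that library. Which cells held the transcripts of COX-1 and COX-2 was not tested. The TPM ratio of Ptgs2 to Ptgs1 was 0.32, 0.265 and 0.0764 in WT and 0.219, 0.402 and 0.188 in C5aR-/- TAMs, and the groups overlapped (exact permutation p = 0.7). The genes with the pattern most like that of Ptgs2 were Nt5e, Fam43a and Gm15568, at a mean absolute distance of 0.212, 0.231 and 0.235. Nt5e, which encodes the adenosine-producing enzyme CD73, had a TPM of 18.3, 9.44 and 6.54 in WT and 8.12, 18.1 and 6.98 in C5aR-/- TAMs. Like Ptgs2, it was highest in WT TAM 1 and C5aR-/- TAM 2.

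Prostanoid synthases convert prostaglandin H2 to its end products. Ptges (ENSMUSG00000050737, chr2:30889471-30929863, minus strand), the inducible microsomal prostaglandin E synthase, had a TPM of 3.72, 2.36 and 2.30 in WT and 1.11, 1.91 and 1.70 in C5aR-/- TAMs. All C5aR-/- libraries lay below all WT libraries, but the log2 difference of -0.55 (95% confidence interval -1.17 to 0.07) did not pass the test (limma adjusted p = 0.391). Ptges3, which encodes the cytosolic prostaglandin E synthase, also known as the Hsp90 cochaperone p23, was far more abundant, at 115.1 to 123.4 TPM in WT and 98.3 to 100.2 in C5aR-/- TAMs. Its groups were apart as well, at a log2 difference of -0.27 (limma adjusted p = 0.318).

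Ptgis (ENSMUSG00000017969, chr2:167191805-167240604, minus strand), the prostacyclin synthase, had a TPM of 205.0, 225.6 and 244.2 in WT and 277.6, 218.2 and 175.6 in C5aR-/- TAMs. Its group means were nearly equal, and the log2 difference was -0.03 (95% confidence interval -0.48 to 0.42, limma adjusted p = 0.96). Prostacyclin synthase is best known from vessel walls and stroma rather than macrophages. Within WT TAMs Ptgis was highest in the library with the lowest macrophage marker sum, whereas within C5aR-/- TAMs it ranked the libraries as the macrophage markers did. Of 8 mesothelial markers, 4 were called lower, against 2.84% of all tested genes. The sum of all 8 was lower in every C5aR-/- library, while Ptgis overlapped. The markers did not all go that way, since Msln was higher in every C5aR-/- library and Wt1 overlapped. The TPM ratio of Ptgis to Wt1 was 0.606, 0.624 and 0.541 in WT and 0.704, 0.638 and 0.53 in C5aR-/- TAMs. Fibroblast markers summed to 404.4 to 604.6 TPM in WT and 439.2 to 557.1 in C5aR-/- TAMs. Endothelial markers summed to 12.8 to 18.4 TPM in WT and 10.1 to 27.5 in C5aR-/- TAMs. Which cells held the Ptgis transcripts was not tested.

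Ptgis made up 25.3% to 28.4% of the summed TPM of the 10 prostanoid synthase genes in every library. Akr1b3, an aldo-keto reductase that can form prostaglandin F2 alpha, made up 31.0% to 48.3%, with 331.6 to 431.0 TPM in WT and 263.1 to 340.2 in C5aR-/- TAMs. Ptgds, the lipocalin-type prostaglandin D synthase, had a TPM of 39.0, 38.7 and 39.8 in WT and 243.7, 90.5 and 14.3 in C5aR-/- TAMs. The C5aR-/- libraries lay on both sides of the WT libraries, and the log2 difference of 0.80 turned to -0.10 without C5aR-/- TAM 1. By the call rule, 0 of the 10 synthase genes were called.

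Breakdown and receptor genes were measured as well. Hpgd, which inactivates prostaglandin E2, had a TPM of 2.98, 1.22 and 1.46 in WT and 7.67, 6.18 and 2.27 in C5aR-/- TAMs. It was called higher (log2 difference 1.08, SE 0.43, limma adjusted p = 0.331), although C5aR-/- TAM 3 lay below WT TAM 1, and the call was lost in 6 of its alternatives. Ptgr1, a reductase that inactivates prostaglandins and leukotriene B4, had 149.6 to 251.9 TPM in WT and 39.3 to 373.6 in C5aR-/- TAMs, so that the groups overlapped. Of the 9 prostanoid receptor genes, 4 passed the filter and 0 were called. Ptger4, the prostaglandin E2 receptor EP4, was the most abundant of them, with 7.15 to 10.3 TPM in WT and 9.05 to 15.5 in C5aR-/- TAMs.

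The 5-lipoxygenase branch starts with Alox5 and Alox5ap. Alox5 (ENSMUSG00000025701, chr6:116410077-116461178, minus strand), which encodes 5-lipoxygenase, had a TPM of 27.9, 10.8 and 5.31 in WT and 12.9, 9.57 and 2.73 in C5aR-/- TAMs. Alox5ap (ENSMUSG00000060063, chr5:149264767-149288153, plus strand), which encodes FLAP, the membrane protein that presents arachidonic acid to the lipoxygenase, had a TPM of 195.2, 111.5 and 58.4 in WT and 139.3, 98.5 and 47.4 in C5aR-/- TAMs. Both genes were highest in library 1 and lowest in library 3 of each group, and the groups overlapped. The log2 differences were -0.66 (95% confidence interval -2.29 to 0.97, adjusted p = 0.701) for Alox5 and -0.32 (-1.58 to 0.95, adjusted p = 0.821, limma) for Alox5ap. The difference of Alox5ap turned to 0.10 without WT TAM 1 and to 0.11 without C5aR-/- TAM 3.

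The macrophage markers ranked the libraries of each group in the same order. The mean log2(TPM + 1) of the 12 markers was 7.55, 6.40 and 5.91 in WT and 7.84, 7.02 and 6.24 in C5aR-/- TAMs. The genes with the pattern most like that of Alox5 were Plek, Itgam and Gm14023, at a mean absolute distance of 0.105, 0.113 and 0.133. Itgam, which encodes the CD11b used in the sort, had a TPM of 273.1, 100.6 and 49.2 in WT and 104.6, 93.7 and 35.6 in C5aR-/- TAMs. Relative to Adgre1, the ratio of Alox5 was 0.244, 0.236 and 0.209 in WT and 0.141, 0.239 and 0.0977 in C5aR-/- TAMs, so the groups still overlapped. The ratio of Alox5ap to Adgre1 was 1.71, 2.44 and 2.30 in WT and 1.53, 2.46 and 1.70 in C5aR-/- TAMs, likewise overlapping. On Csf1r as the base, the ratio of Alox5 was 0.117, 0.12 and 0.0894 in WT and 0.0427, 0.0555 and 0.0326 in C5aR-/- TAMs, and that of Alox5ap was 0.817, 1.24 and 0.984 in WT and 0.462, 0.571 and 0.566 in C5aR-/- TAMs. Both were lower in every C5aR-/- library on that base (exact permutation p = 0.1 each). Over the 12 macrophage markers as bases in turn, the groups were apart and lower for Alox5 on 7, for Alox5ap on 6 and for Ltc4s on 9, and apart and higher for Pla2g7 on 11. The answer for Alox5 and Alox5ap therefore depended on the marker used.

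With the mean of the macrophage markers as a term, the log2 difference of Alox5 was -1.17 with an unadjusted p of 0.00315, which met the call rule, and that of Alox5ap was -0.72, which did not reach 2-fold. Of the 12 markers, 9 had positive differences themselves, with a median of 0.47 and 0 called. A lower level of a gene and a higher level of the markers can therefore not be told apart in that fit. The adjusted p of Alox5 was 0.106 in that fit and ran from 0.106 to 0.972 over all alternatives (limma). Ltc4s, the leukotriene C4 synthase, had a TPM of 267.6, 109.0 and 47.5 in WT and 117.6, 71.5 and 23.9 in C5aR-/- TAMs. Without the term its difference was -0.91 (SE 0.76), and with it -1.5, where it met the call rule (limma adjusted p = 0.071, range over alternatives 0.071 to 0.899). The ratio of Ltc4s to Adgre1 did not overlap, at 2.34, 2.38 and 1.87 in WT and 1.29, 1.78 and 0.856 in C5aR-/- TAMs (exact permutation p = 0.1).

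**Figure D3:**
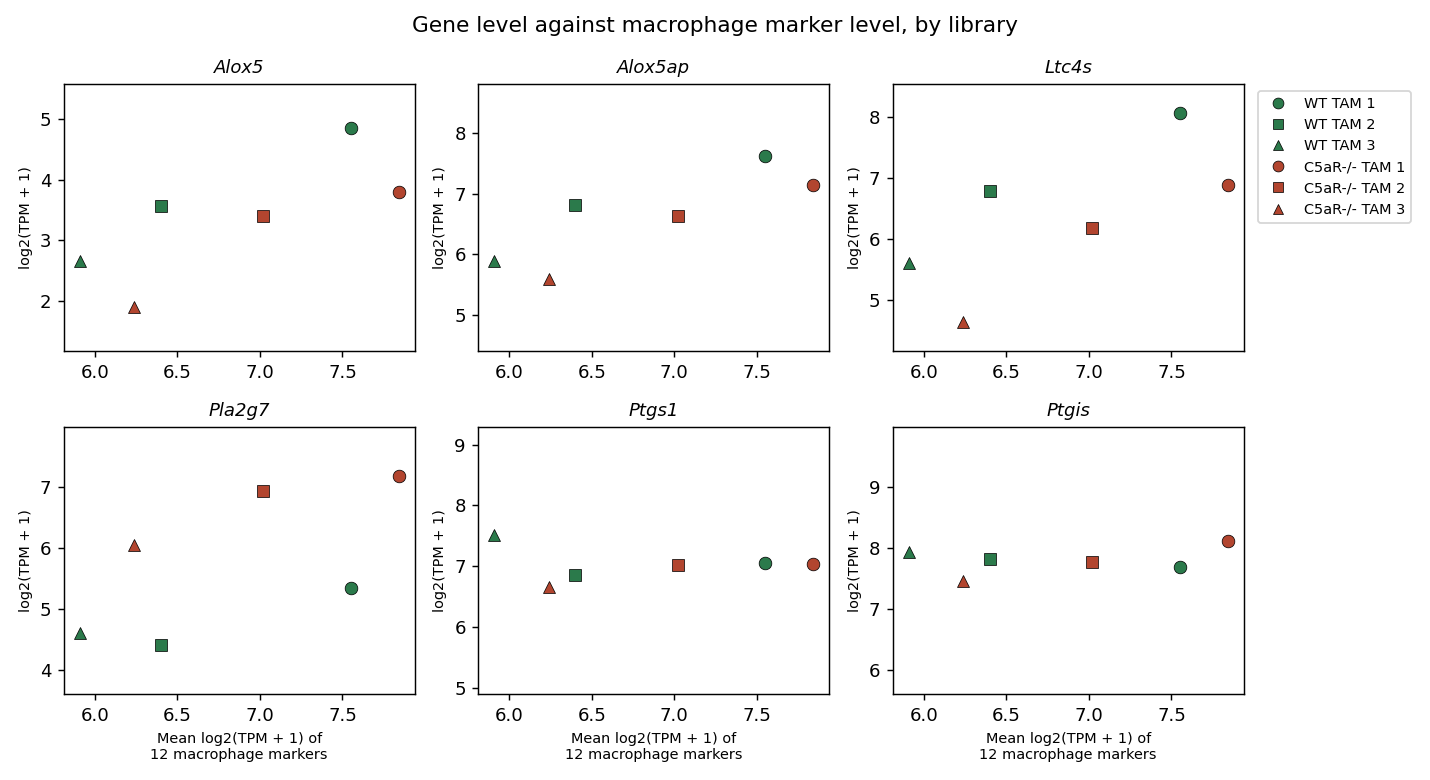
Level of 6 genes (log2(TPM + 1), vertical axes of equal span) against the mean log2(TPM + 1) of 12 macrophage markers in each library, with WT TAMs in green and C5aR-/- TAMs in red. Alox5, Alox5ap and Ltc4s went up with the markers within each group, Pla2g7 was higher in C5aR-/- TAMs at like marker levels, and Ptgs1 and Ptgis spanned less than the other 4 genes, although Ptgis ranked the C5aR-/- libraries as the markers did.

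Marker sums of mast cells, neutrophils and large peritoneal macrophages were also lower in every C5aR-/- library than in every WT library. Mast cells and neutrophils also make leukotrienes, and the Ly6G- and F4/80+ gates of the sort are meant to remove neutrophils. The summed TPM of 10 mast cell markers was 172.0 to 201.7 in WT and 70.6 to 92.8 in C5aR-/- TAMs. Kit made up most of the C5aR-/- sum, at 54.65, 67.99 and 85.38 TPM, against 28.92, 33.06 and 29.75 in WT TAMs. Of 8 tested genes, 6 were called lower and Kit was called higher. Cpa3, Mcpt4, Tpsb2 and Fcer1a, among the 6, passed the filter only through the WT libraries, where they were higher. Cpa3, Mcpt4, Tpsb2, Tpsab1, Fcer1a and Ms4a2 were each listed at 0 in at least 1 C5aR-/- library. The sum of 10 neutrophil markers was 655.7 to 2518 in WT and 33.0 to 433.3 in C5aR-/- TAMs, with 5 of 9 tested genes called lower and Ly6g at 0 in 2 C5aR-/- libraries. Cxcr2, among the 5, passed the filter only through the WT libraries. The sum of 10 markers of large peritoneal macrophages was 316.9 to 1673 in WT and 132.4 to 283.4 in C5aR-/- TAMs, with 5 of 10 called lower. Prg4 and Alox15 made up most of the sum in WT TAM 1, at 776.6 and 410.6 TPM. Of the 10 markers, 4 were apart and lower, and 6 overlapped. Among the 6 were Gata6 (log2 difference -0.16) and Vsig4, which was positive (0.70). Over all tested genes, 2.84% were called lower and 2.13% higher. The part of these cells, or of the mesothelial and epithelial cells whose markers were also present, in the differences of Alox5, Ltc4s, Pla2g5 and Pla2g4c was not tested.

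Alox15, which encodes the 12/15-lipoxygenase of resident peritoneal macrophages, had a TPM of 410.6, 92.6 and 33.6 in WT and 22.5, 42.7 and 5.87 in C5aR-/- TAMs. It is also among the large peritoneal macrophage markers above. It was called lower, with a log2 difference of -2.52 (SE 1.01, limma adjusted p = 0.331), but C5aR-/- TAM 2 lay above WT TAM 3, and the call was lost in 6 of its alternatives, with a value of -1.57 without WT TAM 1 and -1.78 without C5aR-/- TAM 3. Relative to Alox5, its ratio was 14.7, 8.58 and 6.32 in WT and 1.75, 4.46 and 2.15 in C5aR-/- TAMs, and these did not overlap (exact permutation p = 0.1). Ggt5, which converts leukotriene C4 to leukotriene D4, had a TPM of 14.6, 15.9 and 14.6 in WT and 7.54, 7.74 and 2.09 in C5aR-/- TAMs. Ggt5 was called lower (log2 difference -1.38, SE 0.41, limma adjusted p = 0.225), and without C5aR-/- TAM 3 the difference was -0.89, under 2-fold.

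All 7 tested genes of the lipoxygenase and leukotriene groups had negative differences on TPM as deposited, from -0.17 for Lta4h to -2.52 for Alox15. That of Alox5ap changed sign with 1 library left out. Over all tested genes, 8206 of 14776 differences were negative. Of the 7 genes, 2 were called lower, against 2.84% of all tested genes. Lta4h, the leukotriene A4 hydrolase, varied least, at 50.3 to 52.0 TPM in WT and 44.4 to 46.7 in C5aR-/- TAMs. The leukotriene and PAF receptor genes held no call among 4 tested. The most abundant leukotriene receptor gene, Cysltr1, had 1.41 to 4.15 TPM in WT and 1.91 to 5.75 in C5aR-/- TAMs.

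**Figure D4:**
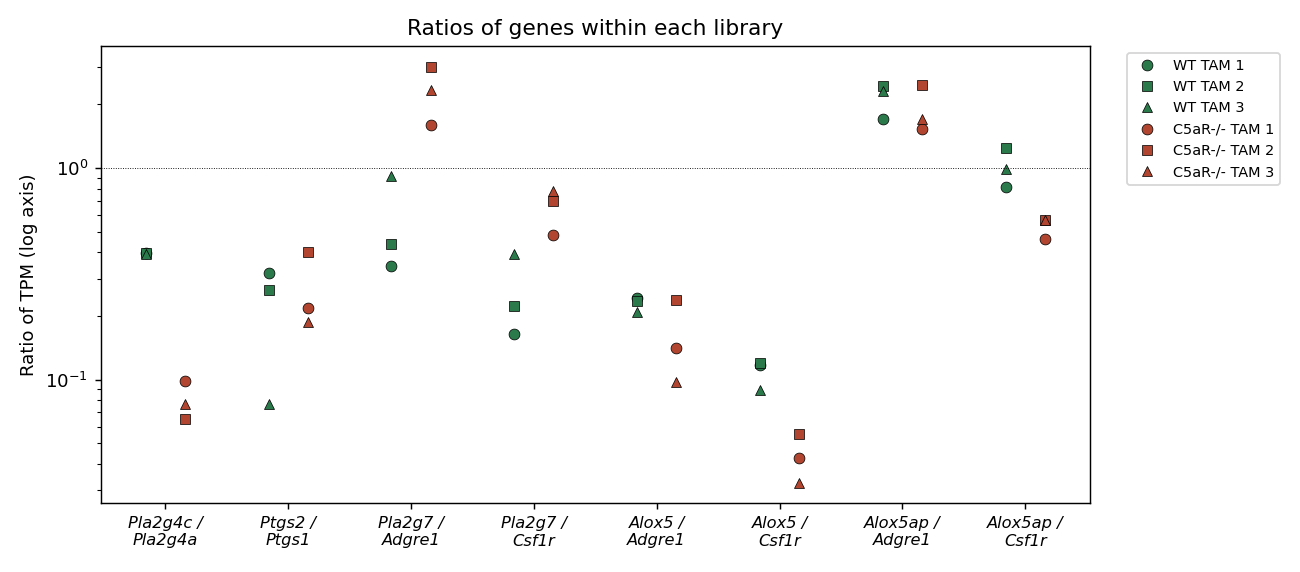
TPM ratios of pairs of genes within each library (log axis, dotted line at 1), with WT TAMs in green, C5aR-/- TAMs in red and a marker shape for each library number. The 3 WT ratios of Pla2g4c to Pla2g4a lay between 0.392 and 0.398, above all C5aR-/- ratios, and those of Alox5 and Alox5ap overlapped on Adgre1 but not on Csf1r.

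Over the wider eicosanoid pathway, 78 genes were listed, members included, of which 55 passed the filter. Of these 55, 4 were called higher (Pla2g7, Lpcat2, Pla2g2d and Hpgd) and 4 lower (Pla2g4c, Pla2g5, Ggt5 and Alox15). Between the groups 17 were apart (30.9%), against 21.3% of all tested genes. Without Pla2g2d, which entered through the C5aR-/- libraries, 3 of 54 were called higher and 4 lower. Pla2g5, called lower, entered through the WT libraries, and Pla2g3, not called, through the C5aR-/- libraries. Pla2g5 is still among the 4 called lower, and Pla2g2d, Pla2g3 and Pla2g5 are all among the 17 apart. The filter thus had a part in these counts, and they are no result about the pathway. Beside the 10 members, 45 genes were tested, with 3 called in each direction and 13 apart (28.9%), Pla2g2d and Pla2g5 included. The median difference of the 55 genes was -0.12, with 34 negative and 21 positive, against 8206 negative and 6570 positive over all tested genes. Among the 12 tested cyclooxygenase and prostanoid synthase genes 0 were called, which is near the 2.13% and 2.84% of all genes and so is no result about them.

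**Figure D5:**
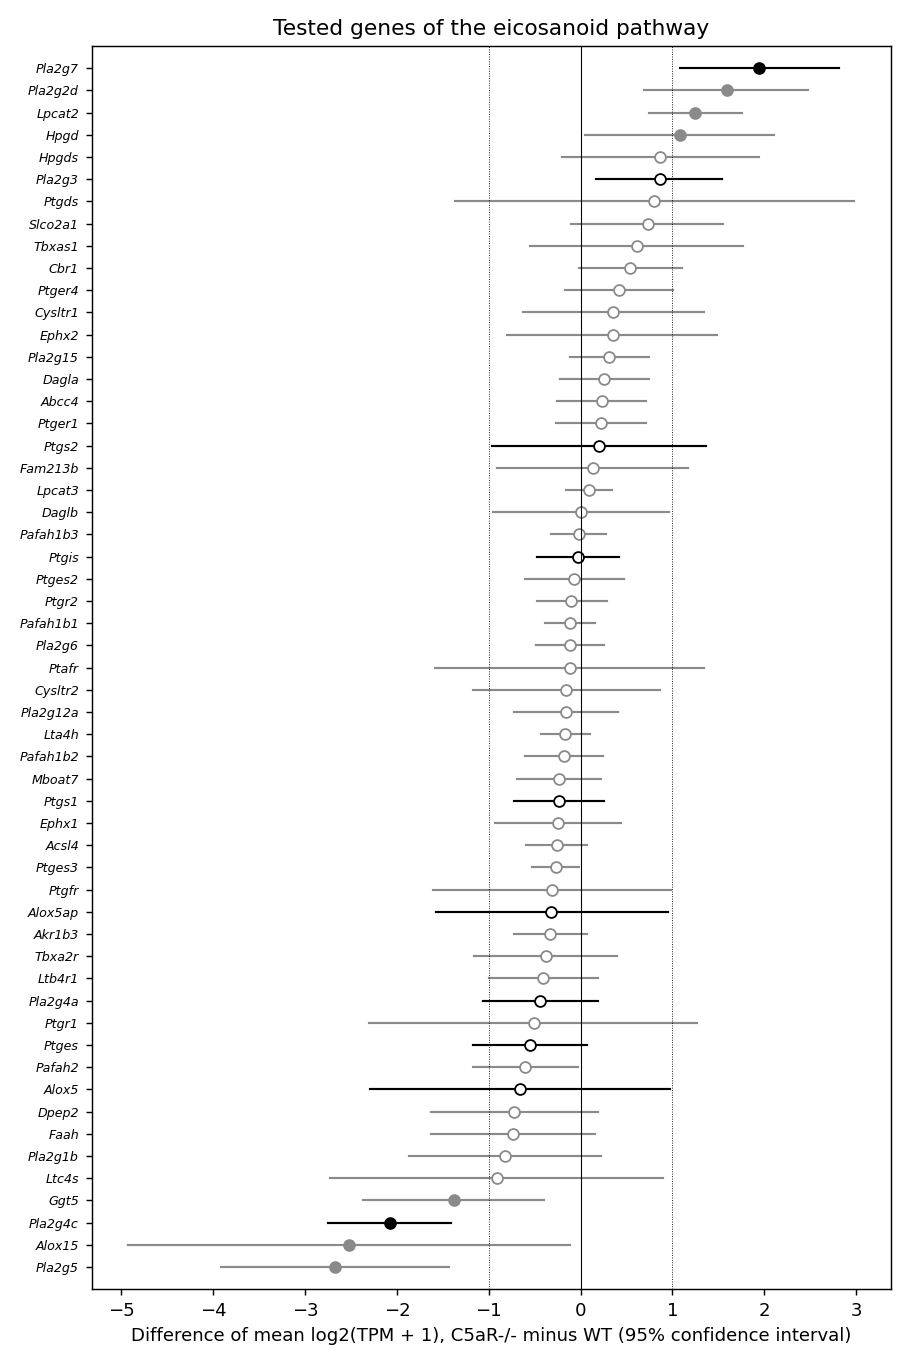
Difference of mean log2(TPM + 1) between C5aR-/- and WT TAMs with its 95% confidence interval for the 55 tested pathway genes, with the 10 members in black, the other genes in gray, filled points for called genes (2-fold, unadjusted p under 0.05), and dotted lines at 2-fold. Pla2g7 (1.94) stood at the upper end and Pla2g5 (-2.67), Alox15 (-2.52) and Pla2g4c (-2.08) at the lower end.

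Other genes of the pathway with a mean of at least 50 TPM were not called. Acsl4, which activates arachidonic acid for return to phospholipids, had 113.4 to 120.5 TPM in WT and 83.8 to 107.0 in C5aR-/- TAMs (log2 difference -0.26). Lpcat3, which puts it back into phospholipids, had 68.4 to 71.0 and 73.7 to 75.1 TPM (0.09). For both, the groups were apart although the difference was small. Ephx1, an epoxide hydrolase, had 102.5 to 124.1 TPM in WT and 70.8 to 153.4 in C5aR-/- TAMs, and the groups overlapped.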

How the data were processed

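Poly(A) RNA of sorted TAMs, 6 libraries, was grouped by the sample labels. The authors deposited TPM values per gene. The submitters' processing notes name fastp, HISAT2, StringTie, RSEM, DESeq2 and mm10, and the versions are not given in the sources used here. Transcript assembly can move reads between overlapping genes. The paper names FPKM and count-based tests, and these were not run on TPM, which keeps no depth. The authors' group means, which equal the mean of the 3 libraries, were not used.

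Symbols and coordinates came from GENCODE M21 (GRCm38, the assembly that mm10 denotes), which matched 52073 of 56980 genes. Promoters came from RefSeq. A TPM of 1 or more was required in 3 or more libraries, and log2(TPM + 1) was tested with limma 3.58.1 in R 4.3.3 (eBayes with trend, Benjamini-Hochberg over 14776 genes). The script was tested on simulated data. Tables and plots used Python 3.11.15, pandas 2.3.3, numpy 2.4.6 and matplotlib 3.10.9. The members and lists were chosen with earlier results of these data known. Of the wider list, 1 symbol had no row.

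Named genes are the 10 members, pathway genes that were called or had a mean of at least 50 TPM, the 3 genes nearest in pattern to Pla2g4c, Ptgs2 and Alox5, and C5ar1. Pla2g6, the PLA2 genes under the filter, Pafah1b2, Pafah2, Ptafr, Ptger4, Lta4h and Cysltr1 were added after their values were seen. Alternatives were other filters (none, or TPM of 5 or more), a pseudocount of 0.1, scaling by median of ratios or by quantiles, a replicate block, eBayes without trend, each library left out and, added after seeing the data, the mean of 12 macrophage markers as a covariate.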

Additional observations from a re-analysis of the deposited data

How the results depend on the processing

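Over 14 alternatives, 13 for Pla2g3 and Ptges, which a TPM filter of 5 removed, 7 of the 10 members kept the sign of their difference (all but Ptgs2, Ptgis and Alox5ap), and Pla2g4c and Pla2g7 kept their call. The count of called members was 2 or 3. Pla2g3 joined with a pseudocount of 0.1, quantile normalization, or without WT TAM 1 or C5aR-/- TAM 2, and Alox5 with the macrophage covariate. Ptgis turned to 0.021 with median-of-ratios scaling, Pafah1b3 to 0.028 there and to 0.013 with quantile normalization, and Ptgs2 to -0.045 with the covariate. The cause was not tested.

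Leaving out each library in turn gave ranges of log2 differences of -0.76 to 0.11 for Alox5ap, -0.20 to 0.13 for Ptgis, -0.23 to 0.54 for Ptgs2, -0.07 to 0.041 for Pafah1b3, -0.10 to 1.90 for Ptgds and -1.27 to 0.34 for Ptgr1. Here the remaining pair was assumed to vary like the other group. At the adjusted threshold, 0 to 1 members (Pla2g4c, without C5aR-/- TAM 1), 0 to 1 genes of the wider list and 0 to 356 of all genes were called, the 356 without C5aR-/- TAM 1. Of all genes, 2 passed it with eBayes without trend and 26 with the covariate. By the unadjusted rule 567 to 1266 genes were called, the 1266 without C5aR-/- TAM 1, against 733 with all libraries and 475 of 11177 genes with a TPM of at least 5.

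Same-numbered libraries correlated at 0.19, -0.01 and 0.27 in their deviations from the group means, and other-numbered ones at -0.23 to 0.09. The labels name no pairs, and the main fit took none, but these values do not exclude pairing. With the replicate block, 2 members, 8 genes of the wider list and 811 of all genes were called by the unadjusted rule and 0 of them at the adjusted threshold. The block lowered the unadjusted limma p from 0.27 to 0.00279 for Ltc4s. It fell from 0.367 to 0.0438 for Alox5 and from 0.567 to 0.0646 for Alox5ap, with the same log2 differences, under 2-fold. TPM gives no depth, so the precision of genes near 1 TPM, such as Pla2g3, Ptges and Pla2g2d, rests on the libraries alone.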
